A study of Homo sapiens with 19 samples.

Results

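Untreated MYCN-high cells were compared with untreated MYCN-low cells of the human neuroblastoma line SHEP TET21N, in which a MYCN transgene is silenced by doxycycline. The members are 4 of the 19 RNA sequencing libraries of the study, chosen by their labels and not by a measured value. The MYCN-high group held 2 libraries, replicates B and C, from cells grown without doxycycline. The MYCN-low group held 2 libraries, also B and C, from cells grown with doxycycline. Neither group had received doxorubicin, and both were grown in RPMI1640 medium with penicillin and foetal calf serum. The study calls its replicates biological duplicates, and the other 15 libraries came from the same cells during and after doxorubicin. SHEP TET21N is a single clone of SHEP, a substrate-adherent (S-type) subline without MYCN amplification, so both states come from 1 clone. All MYCN-low cultures held doxycycline and the MYCN-high cultures held none, so the drug's own effect cannot be told apart from that of MYCN. In such bulk libraries, fewer cells of a kind and less RNA per cell also cannot be told apart.

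MYCN belongs to the MYC family of transcription factors and binds DNA as a dimer with MAX, mostly at the E-box CACGTG. Amplification of its gene marks a part of neuroblastomas with poor outcome. MYC-family proteins are known to raise the transcription of genes for ribosome production, nucleotide synthesis and mitochondrial function. Genes of cell adhesion and the extracellular matrix are known among those that are lower where they are abundant.

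The deposited table gave 23367 genes, and the untreated libraries held 17069126 to 25872769 counts in genes, against 16530112 to 27638012 over all 19 libraries. Of these genes 14793 passed the filter on low counts. Levels are given as CPM, read counts scaled to a common library size by TMM, in replicates B and C of each state in that order. A log2 change is MYCN-high over MYCN-low with its approximate standard error, and a gene is called at an adjusted p under 0.05 in edgeR's quasi-likelihood test. In every called gene named below both libraries of 1 state lay above both of the other, as in all but 0.251% of the called genes. With 2 libraries against 2, the smallest p that an exact test can give is 0.333. A lack of overlap between the states is therefore a description and no evidence of a difference by itself. The MYCN-high pair was close, with 1151 genes more than 2-fold apart, against 2647 in the MYCN-low pair. MYCN-low replicate B lay farther from the MYCN-high libraries (5414 and 5804 genes over 2-fold apart) than replicate C did (2829 and 3199). All 4 structured RNAs that were tested were highest in MYCN-low replicate B. Among them RPPH1, the RNA of ribonuclease P, had 845 and 857 CPM in MYCN-high cells, against 2318 and 789 CPM in MYCN-low cells, and was called in the fit without MYCN-low replicate C (adjusted p = 0.000285). The part of that difference in the results was not tested. Counts that moved by more than 1.5 times when 1 library was left out are given beside each list, and list counts of 3 or fewer fell to as few as 0.

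In all, 5189 genes were called (35.1% of those tested), 2444 of them higher in MYCN-high cells (16.5%) and 2745 lower (18.6%). The change was at least 2-fold in 1034 of the higher and 1721 of the lower genes, and at least 8-fold in 52 and 217. With any 1 of the 4 libraries left out, 1142 of the higher and 1123 of the lower genes stayed called. The median log2 change over all tested genes was -0.04 under this scaling, and 0.62 when libraries were scaled by their ERCC spike-in RNAs. The libraries held 1358 and 528.9 gene counts per ERCC count in MYCN-high cells, against 271.6 and 835.4 in MYCN-low cells. The states overlapped in this ratio, and no gene was called with ERCC scaling (116 higher and 63 lower at an unadjusted p under 0.05). All directions below are relative to the middle of all genes. List medians under ERCC scaling are not, and are to be read against that 0.62. Those given below lie under it, apart from that of the ATF4 list (0.78). Matrix glycoproteins had a median of -0.78 under ERCC scaling, and rRNA processing genes 1.93.

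The cell type label matched the S-type markers and not the adrenergic (N-type) ones. All 6 S-type markers were expressed, VIM and CD44 among them, and their summed level was 1890 and 1610 CPM in MYCN-high cells. In MYCN-low cells it was 5440 and 4270 CPM. Of 8 N-type markers, PHOX2A and TH had no count in any of the 4 libraries, DBH had 2 counts and CHGA 3, both in MYCN-high replicate B alone. HAND2 was expressed in all 4, at 100.3 and 131 CPM in MYCN-high cells, against 122 and 105 CPM in MYCN-low cells. Of 17 markers of Schwann, immune, endothelial, epithelial and erythroid cells, 9 had no count in the 4 libraries. Their summed level was 1.85 and 1.57 CPM in MYCN-high cells, against 2.25 and 2.35 CPM in MYCN-low cells.

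MYCN itself had 675 and 690.4 CPM in MYCN-high cells, against 30.7 and 19.1 CPM in MYCN-low cells, a 27.5-fold difference (log2 change 4.78 ± 0.34, adjusted p = 2.87e-06). Each library matched its label, and MYCN-low cells still held MYCN RNA. MYC, the paralog that most tissues use, ran the other way, with 0.585 and 0.278 CPM in MYCN-high cells, against 16.1 and 13.1 CPM in MYCN-low cells (log2 change -5.07 ± 0.49, adjusted p = 1.04e-05). The MYC libraries did not overlap between the states, and the MYCN-high values rest on 12 and 6 counts. ODC1, which makes the first polyamine and is a classical MYC target, had 1006 and 1130 CPM in MYCN-high cells, against 288 and 445 CPM in MYCN-low cells (log2 change 1.54 ± 0.19, adjusted p = 4.64e-05). COL6A2, a chain of collagen VI, had 27.98 and 23.8 CPM in MYCN-high cells, against 441 and 264 CPM in MYCN-low cells (log2 change -3.77 ± 0.32, adjusted p = 7.69e-06).

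**Figure D1:**
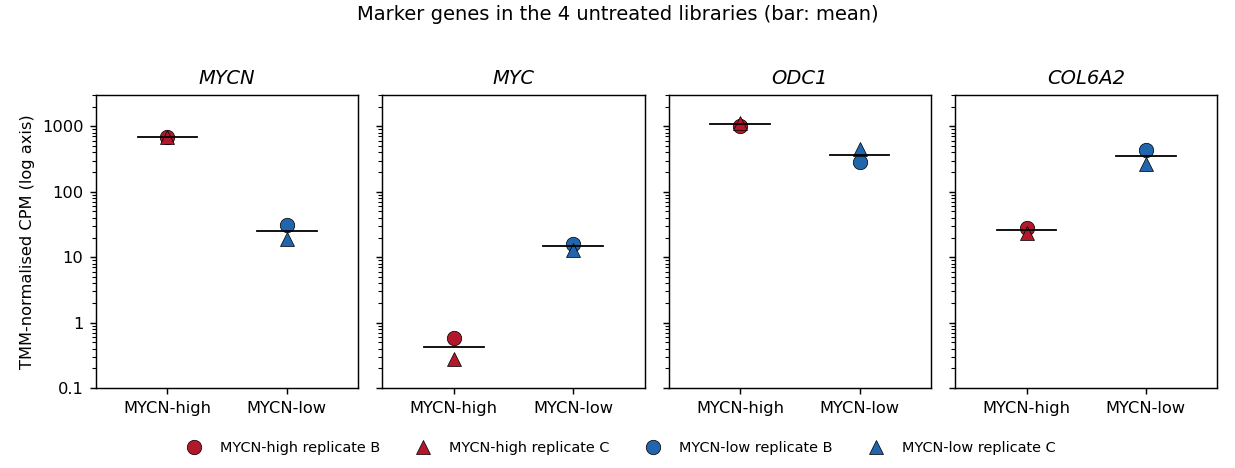
Levels of MYCN, MYC, ODC1 and COL6A2 in the 4 untreated libraries, as TMM-normalised CPM on a log axis, with MYCN-high cells left of MYCN-low cells and bars at the means. MYCN and ODC1 lay higher and MYC and COL6A2 lower in both MYCN-high libraries than in either MYCN-low library.

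Among 18 tested genes of the MYC, MAX and MondoA network, 6 were higher and 4 lower. These are 33.3% and 22.2%, against 16.5% and 18.6% of all tested genes. The obligate partner MAX was not called, with 77.3 and 78.6 CPM in MYCN-high cells, against 64.8 and 63.6 CPM in MYCN-low cells, with no overlap between the states. MXI1, a MAX partner that acts as a repressor, rose to 18.4 and 27.3 CPM in MYCN-high cells, against 8.63 and 5.54 CPM in MYCN-low cells (log2 change 1.70 ± 0.25, adjusted p = 0.000161). MXD4, of the same repressor family, had 4.44 and 7.77 CPM in MYCN-high cells, against 34.2 and 14.04 CPM in MYCN-low cells (log2 change -1.98 ± 0.37, adjusted p = 0.000859). MGA, another MAX partner, was higher by 0.87 ± 0.20 (log2). The E-box factor gene TFAP4 had 29.1 and 33.1 CPM in MYCN-high cells, against 3.02 and 4.03 CPM in MYCN-low cells (log2 change 3.13 ± 0.30, adjusted p = 1.05e-05). MIR17HG, the host transcript of the miR-17-92 microRNAs, had 21.9 and 48.6 CPM in MYCN-high cells, against 1.7 and 4.87 CPM in MYCN-low cells (log2 change 3.40 ± 0.59, adjusted p = 0.000519). Both are known MYC targets, and their libraries did not overlap between the states. TXNIP, an arrestin-like protein that limits glucose uptake and is driven by MondoA, had 41.1 and 60.6 CPM in MYCN-high cells, against 219 and 156 CPM in MYCN-low cells (log2 change -1.88 ± 0.29, adjusted p = 0.000215).

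The genes of largest change were chosen among those that stayed called whichever library was left out, had a mean of at least 5 CPM and did not overlap between the states. A total of 1488 genes passed these limits with a change of at least 2-fold, 717 higher and 771 lower, and the 15 at each end are plotted. Behind MYCN, the largest increase was in SLC7A2, a transporter of arginine and lysine, with 77.9 and 72.5 CPM in MYCN-high cells, against 5.55 and 5.94 CPM in MYCN-low cells (log2 change 3.71 ± 0.28, adjusted p = 2.87e-06). HK2, the hexokinase that commits glucose to glycolysis, had 92.1 and 106 CPM in MYCN-high cells, against 8.46 and 10.7 CPM in MYCN-low cells (log2 change 3.37 ± 0.34, adjusted p = 1.28e-05). SLC6A15, a transporter of branched-chain amino acids and proline, had 152 and 176 CPM in MYCN-high cells, against 10.99 and 25.3 CPM in MYCN-low cells (log2 change 3.17 ± 0.31, adjusted p = 1.04e-05). FABP5, a fatty acid binding protein, had 286 and 289 CPM in MYCN-high cells, against 20.2 and 55.7 CPM in MYCN-low cells. BCL11A, a zinc finger transcription factor, was 6.72-fold higher in MYCN-high cells (log2 change 2.75 ± 0.28). PPARGC1B, a coactivator of mitochondrial gene expression, had 18.2 and 22.7 CPM in MYCN-high cells, against 1.7 and 4.75 CPM in MYCN-low cells. Both MYCN-low libraries were low in these genes, with replicate C above replicate B in SLC6A15, FABP5 and PPARGC1B. At the other end, KIAA1199 (CEMIP), a protein of hyaluronan breakdown, had 2.63 and 2.17 CPM in MYCN-high cells, against 184 and 48.2 CPM in MYCN-low cells (log2 change -5.59 ± 0.66, adjusted p = 3.91e-05). HSD3B7, an enzyme of bile acid synthesis, had 0.195 and 0.278 CPM in MYCN-high cells, against 15.3 and 10.01 CPM in MYCN-low cells (log2 change -5.70 ± 0.57, adjusted p = 1.28e-05). INHBA, the activin A subunit, had 1.8 and 0.324 CPM in MYCN-high cells, against 41.98 and 24.7 CPM in MYCN-low cells. In MYCN-high cells HSD3B7 lay at or under the level of MYC, and INHBA in replicate C near it. These values rest on few counts, so the size of the 2 changes is imprecise. EPAS1, the hypoxia factor HIF-2 alpha, had 1.07 and 0.833 CPM in MYCN-high cells, against 42.9 and 11.5 CPM in MYCN-low cells. LBH, a transcription cofactor, had 10.2 and 2.17 CPM in MYCN-high cells, against 203 and 44.96 CPM in MYCN-low cells. In KIAA1199, EPAS1 and LBH, MYCN-low replicate B stood well above replicate C, and both stood above MYCN-high cells.

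**Figure D2:**
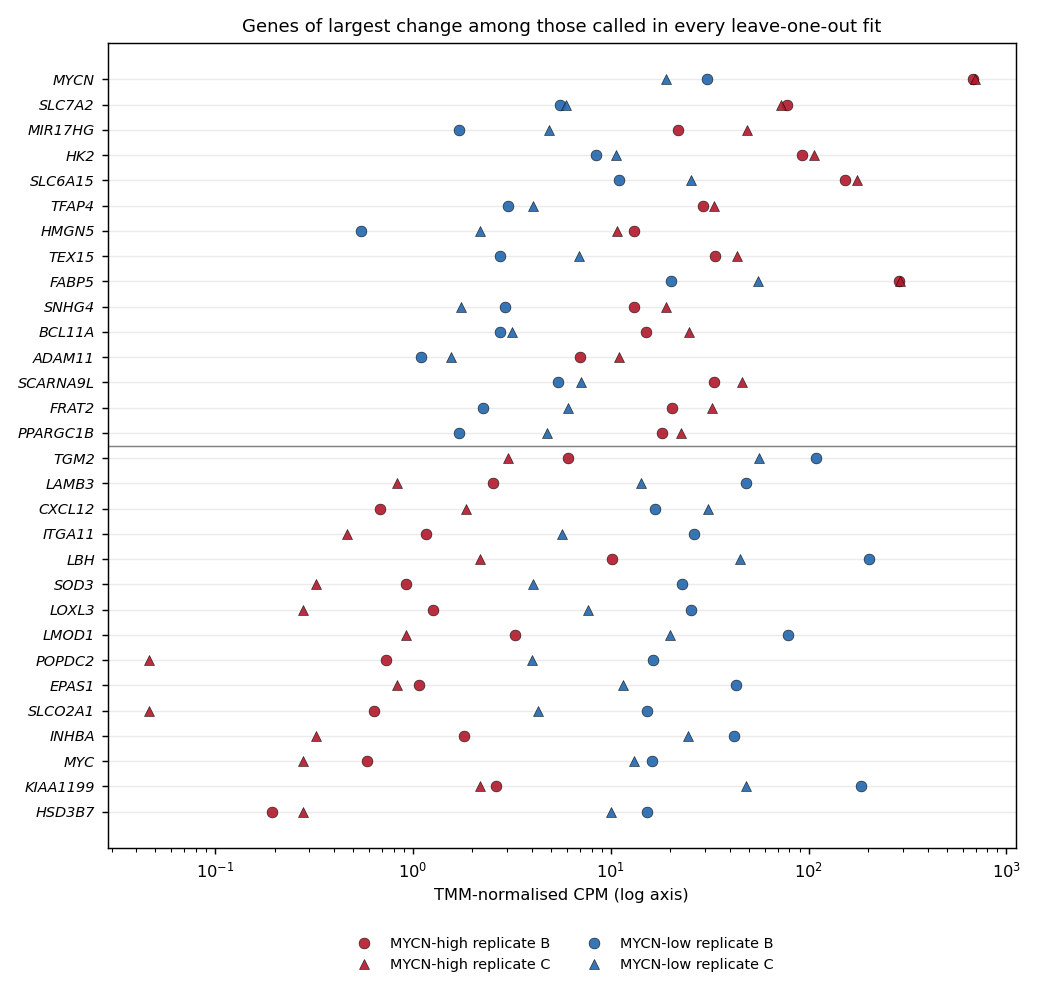
The 15 genes of largest increase and the 15 of largest decrease in MYCN-high cells among genes called in every fit that left out 1 of the 4 libraries, as TMM-normalised CPM on a log axis with 1 point per library. The genes were chosen to have both libraries of 1 state above both of the other, so this holds in all 30.

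By gene group, lists for RNA polymerase I, rRNA processing, translation, chaperones and mitochondria had more higher than lower members, and lists for matrix, adhesion, contraction, antigen presentation and lysosomes more lower than higher ones. The lists were written with earlier results of these data known. The plot of called members sets each list beside the 16.5% of all tested genes that were higher and the 18.6% that were lower. The lower share was under 18.6% in the polyamine and amino acid transporter lists (12.5% each) and the adrenergic list (13.3%). Several counts fell by more than 1.5 times when the 4 untreated libraries were fitted alone. In that fit 7 in place of 32 cytosolic ribosomal proteins, 29 in place of 47 mitochondrial ribosomal proteins, 12 in place of 24 translation factors, 10 in place of 19 aminoacyl-tRNA synthetases and 6 in place of 11 RNA polymerase III genes were higher. The count of higher genes was 4 in place of 19 in the respiratory chain, 5 in place of 15 in the citrate cycle, 1 in place of 9 in sterol and fatty acid synthesis, 5 in place of 9 in glycolysis, 4 in place of 9 in ABC transporters and 1 in place of 5 in the polyamine list. The count of lower genes was 10 in place of 18 in receptor tyrosine kinases, 10 in place of 17 in NF-kappaB genes, 9 in place of 16 in interferon-stimulated genes, 9 in place of 15 in YAP signalling, 3 in place of 9 in p53 genes and 4 in place of 8 in AP-1 factors. It was 2 in place of 6 in glycolysis and 1 in place of 4 in the respiratory chain.

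**Figure D3:**
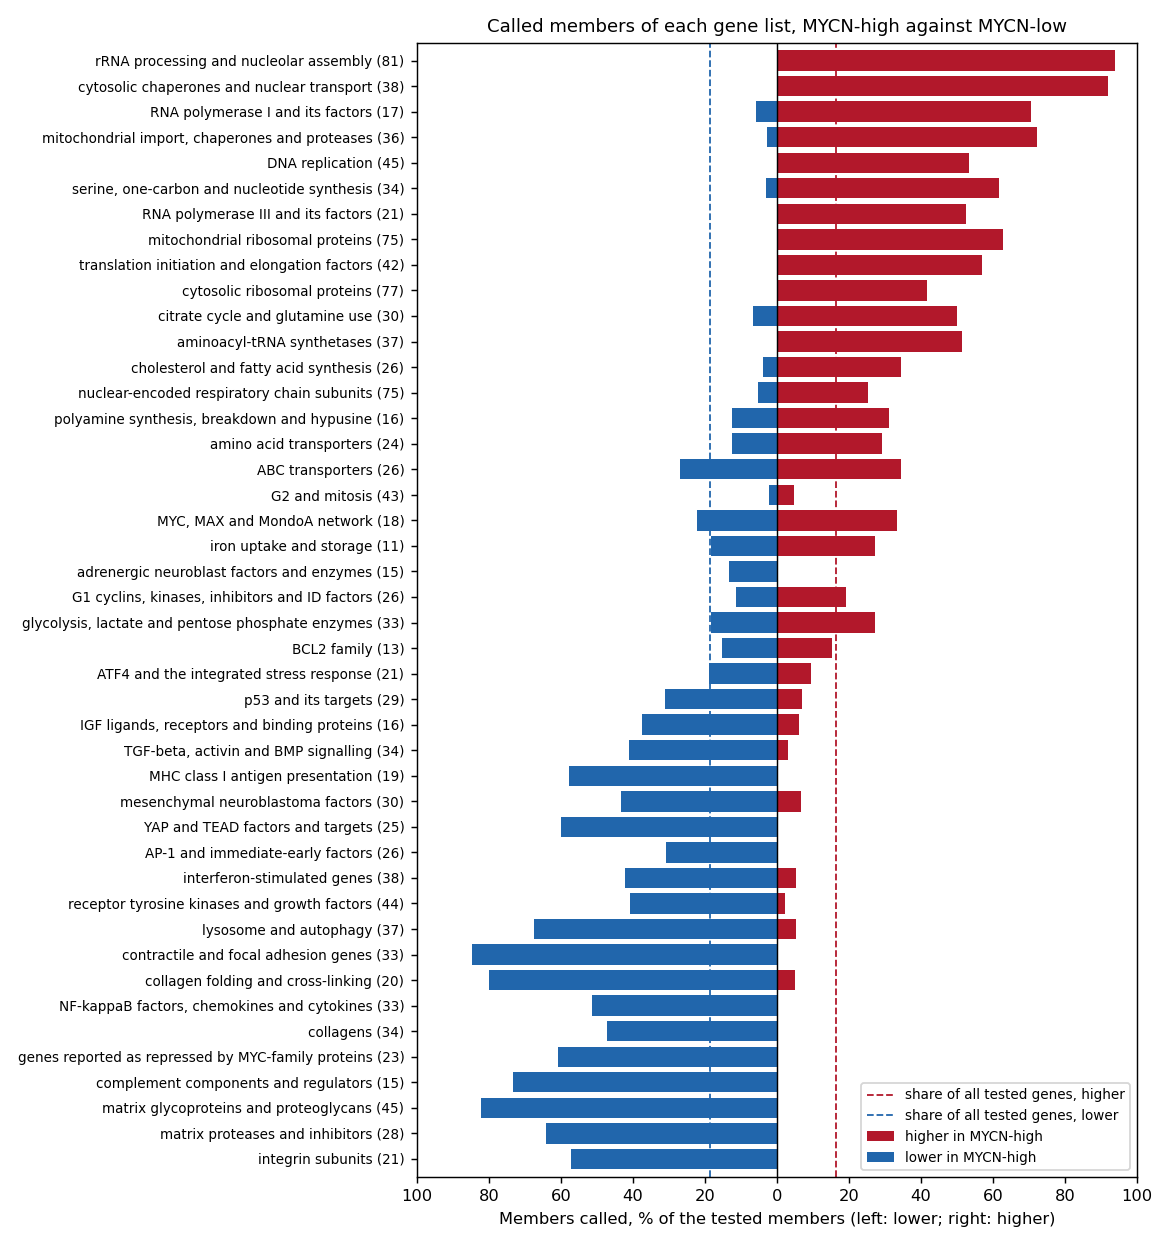
Share of each list's tested members called higher (right) or lower (left) in MYCN-high cells, with the number tested in brackets and dashed lines at the shares of all 14793 tested genes. Lists are ordered by median log2 change, and with ERCC scaling no member was called.

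Genes of rRNA processing had the largest share of higher members of all the lists (93.8%). Of 81 tested genes of rRNA processing and nucleolar assembly, 76 were higher and none lower (median log2 change 1.30), and 69 of them stayed called whichever 1 of the 4 libraries was left out. NPM1, the nucleolar chaperone nucleophosmin, had 9513 and 11000 CPM in MYCN-high cells, against 1535 and 3385 CPM in MYCN-low cells (log2 change 2.06 ± 0.29, adjusted p = 0.000113). NCL, nucleolin, had 4781 and 4721 CPM in MYCN-high cells, against 969.7 and 1927 CPM in MYCN-low cells. FBL, the rRNA methyltransferase fibrillarin, was 2.46-fold higher in MYCN-high cells (log2 change 1.30 ± 0.20). NOP56 and NOP58 form the box C/D particle with FBL. NOP56 had 459.6 and 460.4 CPM in MYCN-high cells, against 116 and 154 CPM in MYCN-low cells (log2 change 1.77 ± 0.17, adjusted p = 1.01e-05), and NOP58 was higher by 1.77 ± 0.27 (log2). DKC1, the pseudouridine synthase of the box H/ACA particles and of telomerase, was higher by 1.57 ± 0.19 (log2). The helicase DDX21 had 1916 and 1654 CPM in MYCN-high cells, against 411 and 592 CPM in MYCN-low cells, and the large subunit factors PES1, BOP1 and WDR12 were higher by 1.33 ± 0.17 (log2), 1.12 ± 0.18 (log2) and 1.83 ± 0.21 (log2). GNL3, nucleostemin, was 3.63-fold higher in MYCN-high cells (log2 change 1.86 ± 0.20). The helicase gene DDX49 was not called, with 46.9 and 44.8 CPM in MYCN-high cells, against 58.2 and 31.6 CPM in MYCN-low cells, with overlapping states.

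Of 17 genes of RNA polymerase I and its factors, 12 were higher and 1 lower. POLR1B, the second-largest subunit, had 119 and 128 CPM in MYCN-high cells, against 21.6 and 33.8 CPM in MYCN-low cells (log2 change 2.15 ± 0.20, adjusted p = 9.47e-06). Subunits POLR1C and POLR1E were higher by 1.72 ± 0.25 (log2) and 1.30 ± 0.18 (log2). TCOF1 (treacle), which couples rRNA transcription to processing, was higher by 1.10 ± 0.16 (log2). RRN3, the initiation factor TIF-IA, was higher by 0.84 ± 0.19 (log2), with an adjusted p of 0.0582 in the fit of the untreated libraries alone. UBTF, the upstream binding factor at rDNA, had 365 and 342 CPM in MYCN-high cells, against 283 and 300.4 CPM in MYCN-low cells, with no overlap between the states, and was not called. The lower member, PTRF, is named for polymerase I transcript release but is known also as cavin-1 of caveolae, and had 516 and 370.0 CPM in MYCN-high cells, against 1372 and 1161 CPM in MYCN-low cells (log2 change -1.51 ± 0.21, adjusted p = 0.0001). Of 21 genes of RNA polymerase III, which makes tRNA and 5S rRNA, 11 were higher and none lower. POLR3G, the subunit variant known from stem and tumour cells, had 159 and 169 CPM in MYCN-high cells, against 20.9 and 36.2 CPM in MYCN-low cells (log2 change 2.52 ± 0.23, adjusted p = 9.66e-06). POLR3K was 3.19-fold higher in MYCN-high cells (log2 change 1.68 ± 0.20). GTF3C1, the largest subunit of TFIIIC, had 174 and 172 CPM in MYCN-high cells, against 192 and 168 CPM in MYCN-low cells. It was not called. MAF1, the polymerase III repressor, had 58.5 and 60.5 CPM in MYCN-high cells, against 85.5 and 51.5 CPM in MYCN-low cells, and was not called either.

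Of 77 tested cytosolic ribosomal proteins 32 were higher and none lower, with a median log2 change of 0.50, against 1.30 for rRNA processing. Their count of higher genes was 19 without MYCN-high replicate B, 13 without MYCN-high replicate C and 15 without MYCN-low replicate B. RPL5, which binds 5S rRNA, had 2171 and 2398 CPM in MYCN-high cells, against 819.9 and 1152 CPM in MYCN-low cells (log2 change 1.21 ± 0.21, adjusted p = 0.000518). RPS23 was 2.14-fold higher in MYCN-high cells (log2 change 1.09 ± 0.22). RPLP0, of the ribosomal stalk, had 1373 and 1437 CPM in MYCN-high cells, against 1218 and 1227 CPM in MYCN-low cells, with no overlap between the states, and was not called. Ribosomal protein genes, like NPM1, HSPE1, CYCS and FABP5, have near-identical pseudogenes, so their reads could be split or lost. RPL21 is listed at 0 in all 4 libraries. Of 42 translation factors, 24 were higher and none lower. EIF3B, a core subunit of the initiation factor eIF3, had 556 and 533 CPM in MYCN-high cells, against 228 and 284 CPM in MYCN-low cells (log2 change 1.09 ± 0.15, adjusted p = 0.000109). EIF3J was 2.77-fold higher in MYCN-high cells (log2 change 1.47 ± 0.20). EIF2S1, the regulated alpha subunit of eIF2, was higher by 1.01 ± 0.19 (log2). The elongation factor EEF2 had 2541 and 2473 CPM in MYCN-high cells, against 2250 and 1640 CPM in MYCN-low cells, with no overlap between the states, and was not called, while EIF4A1 and EIF3C are listed at 0 throughout. Of 37 aminoacyl-tRNA synthetases, 19 were higher and none lower, and 11 without MYCN-high replicate B and 11 without replicate C. The mitochondrial methionyl enzyme MARS2 had 23.2 and 17.7 CPM in MYCN-high cells, against 5.05 and 5.98 CPM in MYCN-low cells (log2 change 1.89 ± 0.24, adjusted p = 5.55e-05). The cytosolic leucyl enzyme LARS was 1.98-fold higher in MYCN-high cells (log2 change 0.98 ± 0.18). The alanyl and seryl enzymes AARS and SARS were not called, with AARS at 308 and 304 CPM in MYCN-high cells, against 268 and 220.5 CPM in MYCN-low cells.

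Of 34 genes of serine, one-carbon and nucleotide synthesis, 21 were higher and 1 lower, and 12 higher without MYCN-high replicate C and 13 without MYCN-low replicate B. PPAT, PAICS, GART and PFAS carry out steps of purine synthesis. PPAT, the first committed enzyme, had 156 and 181 CPM in MYCN-high cells, against 35.1 and 66.4 CPM in MYCN-low cells (log2 change 1.73 ± 0.25, adjusted p = 0.000153). PAICS was 2.78-fold higher in MYCN-high cells (log2 change 1.48 ± 0.18). GART was 2.74-fold higher in MYCN-high cells (log2 change 1.46 ± 0.15). PFAS was higher by 1.34 ± 0.18 (log2). In pyrimidine synthesis TYMS, thymidylate synthase, was higher by 0.77 ± 0.19 (log2). RRM2, the small subunit of ribonucleotide reductase, had 473 and 525 CPM in MYCN-high cells, against 265 and 462 CPM in MYCN-low cells, with no overlap between the states, and was not called. PHGDH, the first enzyme of serine synthesis, was likewise not called, with 142 and 188 CPM in MYCN-high cells, against 81.5 and 72.96 CPM in MYCN-low cells.

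In the polyamine list 5 of 16 tested genes were higher and 2 lower, and 3 were higher without MYCN-high replicate B and 2 without replicate C. With all libraries the shares were 31.2% higher and 12.5% lower, against 16.5% and 18.6% of all tested genes. Beside ODC1, AMD1, which supplies the aminopropyl donor, was higher by 0.73 ± 0.15 (log2), with an adjusted p of 0.0611 in the fit of the untreated libraries alone. SRM, spermidine synthase, had 16.1 and 16.1 CPM in MYCN-high cells, against 17.2 and 10.2 CPM in MYCN-low cells, with overlapping states, and was not called. SMOX, which oxidises spermine, had 4.88 and 5.04 CPM in MYCN-high cells, against 5.82 and 4.43 CPM in MYCN-low cells, with overlapping states, and was not called either. Of 24 amino acid transporters 7 were higher and 3 lower, and 5 lower without MYCN-low replicate C. The glutamine carrier SLC38A1 had 547 and 442 CPM in MYCN-high cells, against 154 and 149 CPM in MYCN-low cells (log2 change 1.71 ± 0.24, adjusted p = 0.000131), while its relative SLC38A2 had 287 and 308 CPM in MYCN-high cells, against 501 and 599 CPM in MYCN-low cells (log2 change -0.89 ± 0.16, adjusted p = 0.00064). SLC7A5, the large neutral amino acid carrier LAT1, had 97.01 and 109.5 CPM in MYCN-high cells, against 81.7 and 23.4 CPM in MYCN-low cells, and was not called. With all libraries the shares in the transporter list were 29.2% higher and 12.5% lower, against the same 16.5% and 18.6%.

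Targets of ATF4, the factor of the integrated stress response to amino acid shortage and misfolded protein, gave no common direction. Of 21 genes 2 were higher and 4 lower, and 2 lower without MYCN-low replicate B. The shares with all libraries, 9.52% higher and 19.0% lower, stand against 16.5% and 18.6% of all tested genes. The median log2 distance of MYCN-high cells over the list was -0.67 from MYCN-low replicate B and 0.25 from replicate C. It was 0.78 under ERCC scaling and 0.31 without MYCN-low replicate B, against -0.29 with all libraries. ATF4 had 251 and 244 CPM in MYCN-high cells, against 212 and 138 CPM in MYCN-low cells, with no overlap between the states, and was not called. TRIB3, a pseudokinase induced by ATF4, had 8.38 and 6.85 CPM in MYCN-high cells, against 15.2 and 3.43 CPM in MYCN-low cells, with the MYCN-high libraries between the MYCN-low ones. PPP1R15A (GADD34), which restores translation after stress, was lower, with 66.5 and 53.8 CPM in MYCN-high cells, against 116 and 161 CPM in MYCN-low cells (log2 change -1.21 ± 0.24, adjusted p = 0.0016).

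Glycolysis and lactate genes were mixed, with 9 of 33 higher and 6 lower. These are 27.3% and 18.2%, against 16.5% and 18.6% of all tested genes. The higher count was 5 without MYCN-high replicate C, and the lower was 3 without MYCN-high replicate B or C or MYCN-low replicate B. PFKM, the muscle phosphofructokinase, was higher by 1.35 ± 0.17 (log2), and LDHB, the heart lactate dehydrogenase, had 2474 and 2116 CPM in MYCN-high cells, against 513 and 872 CPM in MYCN-low cells (log2 change 1.73 ± 0.25, adjusted p = 0.000167). PKM2, pyruvate kinase, had 2869 and 2608 CPM in MYCN-high cells, against 2600 and 2881 CPM in MYCN-low cells, with overlapping states, and was not called. The lactate transporters differed in direction. SLC16A1 (MCT1) had 497 and 501 CPM in MYCN-high cells, against 125 and 192 CPM in MYCN-low cells (log2 change 1.65 ± 0.18, adjusted p = 1.83e-05), while SLC16A3 (MCT4) had 7.65 and 5.88 CPM in MYCN-high cells, against 27.8 and 18.5 CPM in MYCN-low cells (log2 change -1.77 ± 0.35, adjusted p = 0.0012). The glucose transporter SLC2A3 was lower, with 6.53 and 3.19 CPM in MYCN-high cells, against 16.8 and 17.6 CPM in MYCN-low cells.

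Among mitochondrial genes, most of those for import, folding and protein synthesis were higher. Of 36 genes of import, chaperones and proteases 26 were higher and 1 lower, and of 75 mitochondrial ribosomal proteins 47 were higher and none lower (median log2 changes 0.83 and 0.67). HSPD1 and HSPE1, the matrix chaperonin HSP60 and its lid HSP10, lie head to head on chromosome 2. HSPD1 had 2351 and 2642 CPM in MYCN-high cells, against 430.3 and 757 CPM in MYCN-low cells (log2 change 2.07 ± 0.22, adjusted p = 2.03e-05). HSPE1 had 11.9 and 15.4 CPM in MYCN-high cells, against 3.96 and 5.27 CPM in MYCN-low cells (log2 change 1.56 ± 0.25, adjusted p = 0.000281). HSPA9, the mitochondrial HSP70 of import, had 1680 and 1644 CPM in MYCN-high cells, against 404 and 669 CPM in MYCN-low cells (log2 change 1.63 ± 0.22, adjusted p = 9.83e-05). TFAM, which packages mitochondrial DNA, and TFB2M, which starts its transcription, were higher by 1.81 ± 0.21 (log2) and 1.77 ± 0.22 (log2). C1QBP, a protein of the mitochondrial matrix, was 3.54-fold higher in MYCN-high cells (log2 change 1.82 ± 0.22). The ribosomal protein gene MRPS17 was 3.26-fold higher in MYCN-high cells (log2 change 1.71 ± 0.20). No mitochondrially encoded mRNA is listed in the table.

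Of 75 nuclear-encoded respiratory chain subunits 19 were higher and 4 lower, so 25.3% were higher, against 16.5% of all tested genes. The count of higher subunits was 9 without MYCN-high replicate B, 5 without MYCN-high replicate C, 6 without MYCN-low replicate B and 30 without MYCN-low replicate C. The count of lower ones was 2, 1, 1 and 12 in the same 4 fits. CYCS, cytochrome c, had 888 and 867 CPM in MYCN-high cells, against 191 and 399 CPM in MYCN-low cells (log2 change 1.57 ± 0.29, adjusted p = 0.000801). COX7C was 2.37-fold higher in MYCN-high cells (log2 change 1.24 ± 0.27). COX4I1, a nuclear-encoded subunit of complex IV, had 199 and 216 CPM in MYCN-high cells, against 202 and 198 CPM in MYCN-low cells, with overlapping states, and was not called. NDUFS8, an iron-sulphur subunit of complex I, was lower, with 20.7 and 22.5 CPM in MYCN-high cells, against 64.3 and 34.03 CPM in MYCN-low cells (log2 change -1.18 ± 0.25, adjusted p = 0.002). Of 30 citrate cycle and glutamine genes 15 were higher and 2 lower, and 9 were higher without MYCN-high replicate B, 5 without MYCN-high replicate C and 7 without MYCN-low replicate B. ME2, a malic enzyme, was 2.29-fold higher in MYCN-high cells (log2 change 1.19 ± 0.20), and FH, fumarase, was higher by 0.85 ± 0.17 (log2). CS, citrate synthase, had 156 and 169 CPM in MYCN-high cells, against 128 and 121 CPM in MYCN-low cells, with no overlap between the states, and was not called.

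Among cytosolic chaperones and nuclear transport factors 35 of 38 were higher and none lower (median log2 change 1.05). RUVBL1, an AAA ATPase of chromatin and snoRNP assembly, had 339.6 and 342 CPM in MYCN-high cells, against 140.3 and 135 CPM in MYCN-low cells (log2 change 1.30 ± 0.14, adjusted p = 1.66e-05). AHSA1, which activates HSP90, was 2.57-fold higher in MYCN-high cells (log2 change 1.36 ± 0.16). The ribosome-bound DNAJC2 was 3.22-fold higher in MYCN-high cells (log2 change 1.69 ± 0.19). RAN, the GTPase of nuclear transport, and its exchange factor RCC1 were higher by 0.91 ± 0.16 (log2) and 1.54 ± 0.19 (log2). The members not called were KPNA2, NUTF2 and NXT1, with KPNA2 at 1558 and 1183 CPM in MYCN-high cells, against 1198 and 996 CPM in MYCN-low cells. Of 26 genes of cholesterol and fatty acid synthesis 9 were higher and 1 lower, and 5 were higher without MYCN-high replicate B, 1 without MYCN-high replicate C and 4 without MYCN-low replicate B. SCD, the fatty acid desaturase, had 362 and 577 CPM in MYCN-high cells, against 151 and 194 CPM in MYCN-low cells (log2 change 1.45 ± 0.28, adjusted p = 0.0011).

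The letters CACGTG, the E-box that MYC-family dimers with MAX are known to bind, were searched in the promoters of RefSeq, in windows of 250 bases before to 50 after the first listed start of a gene. The motif is its own reverse complement, so 1 search covers both strands. Of 27305 promoters, 2030 held it (7.43%). Among the 1979 matched promoters of genes called higher (81.0% of these genes) 286 held it (14.5%), or 11.6% in the bases before the start, against 6.49% of all promoters. Over the matched promoters of all tested genes the share was 9.72%, or 8.57% before the start. It was 8.96% in genes not called and 7.90% in genes called lower. Under 80% of the genes of these 3 sets were matched (76.1% of those tested, 74.0% of those not called and 78.9% of those called lower), so a check against them is void. Of 81 rRNA processing genes 70 were matched and 25 held it (35.7%), against 10 before the start (14.3%), and in the others the letters reach past the start. In FBL they begin at base 7 of the transcript, in PES1 at base 14 and in WDR43 at base 4. The share was 25.0% in mitochondrial import and chaperones (8 of 32), 21.4% in nucleotide synthesis (6 of 28) and 4.76% in cytosolic ribosomal proteins (3 of 63). It did not follow the direction of the lists throughout: among the mostly higher cytosolic chaperones it was 9.09% (3 of 33). Other lists with more higher than lower members had 3.7% (citrate cycle, 1 of 27) and 11.1% (respiratory chain, 7 of 63). Mitochondrial ribosomal proteins had 11.4% (8 of 70) and DNA replication 12.5% (5 of 40). G2 and mitosis, with few calls, had 17.1% (6 of 35). With so few promoters the 95% Wilson intervals are wide, such as 10.2% to 39.5% for nucleotide synthesis. Among the lists with more lower than higher members, TGF-beta signalling had 18.8% (6 of 32), matrix glycoproteins had 1 of 36 and contractile and focal adhesion genes had 0 of 30. Lists of lower genes matched under 80% ran both ways. Lysosome genes had 26.9% (7 of 26), and YAP signalling and AP-1 factors 21.1% each (4 of 19). Mesenchymal factors had 18.2% and p53 genes 17.4%. Collagens had 0 of 26, antigen presentation 0 of 15 and complement 0 of 10. Receptor tyrosine kinases had 2.86%, NF-kappaB genes 4.0%, interferon-stimulated genes 6.9%, and integrins and matrix proteases 7.14% each. Lists of higher genes matched under 80% had 37.5% (RNA polymerase III, 6 of 16) and 24.2% (translation factors, 8 of 33). Sterol and fatty acid synthesis had 15.0% and aminoacyl-tRNA synthetases 14.8%. The median GC content was 63.7% in promoters of genes called higher, against 65.0% in those of all tested genes and 58.3% over all promoters. It was 71.2% in contractile genes, and its part in the shares was not tested. The motif was also in promoters of genes that were not called, such as 3 times in IGF2R, and in genes called lower, such as SMAD3 and CTSD.

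Promoters of 4 genes that were higher and 1 that was lower are printed to show where the letters lie. Each is the 250 bases before the start site on the gene's own strand in GRCh38.p14 (RefSeq), 5′ to 3′, with CACGTG in capitals. HSPE1 (chr2:197500129-197500378, plus strand) shares its site with HSPD1, which starts on the minus strand. The letters begin 22 bases before the start of HSPE1 and 88 bases before that of HSPD1. In HSPA9 (chr5:138575402-138575651, minus strand) they begin 19 bases before the start. In PPAT (chr4:56435616-56435865, minus strand) the distance is 182 bases, and in RAN (chr12:130871816-130872065, plus strand) it is 102. DUSP1 (chr5:172771196-172771445, minus strand), a MAP kinase phosphatase that was lower in MYCN-high cells (log2 change -2.47 ± 0.31, adjusted p = 5.78e-05), holds the same letters 108 bases before its start.
HSPE1: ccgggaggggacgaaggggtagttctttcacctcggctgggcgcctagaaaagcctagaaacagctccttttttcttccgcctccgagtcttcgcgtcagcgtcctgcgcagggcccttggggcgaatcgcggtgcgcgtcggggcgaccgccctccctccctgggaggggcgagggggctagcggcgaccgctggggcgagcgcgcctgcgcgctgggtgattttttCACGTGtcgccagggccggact
HSPA9: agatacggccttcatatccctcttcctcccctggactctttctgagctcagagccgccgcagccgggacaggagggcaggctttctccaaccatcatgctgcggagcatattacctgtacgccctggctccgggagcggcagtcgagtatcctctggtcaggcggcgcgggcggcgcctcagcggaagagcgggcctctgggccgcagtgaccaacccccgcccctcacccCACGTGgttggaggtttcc
PPAT: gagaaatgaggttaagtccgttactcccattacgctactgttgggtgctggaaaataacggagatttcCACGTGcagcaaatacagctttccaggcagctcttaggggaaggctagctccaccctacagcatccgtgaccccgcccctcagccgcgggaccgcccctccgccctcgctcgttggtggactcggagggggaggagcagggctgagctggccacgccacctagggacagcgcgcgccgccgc
RAN: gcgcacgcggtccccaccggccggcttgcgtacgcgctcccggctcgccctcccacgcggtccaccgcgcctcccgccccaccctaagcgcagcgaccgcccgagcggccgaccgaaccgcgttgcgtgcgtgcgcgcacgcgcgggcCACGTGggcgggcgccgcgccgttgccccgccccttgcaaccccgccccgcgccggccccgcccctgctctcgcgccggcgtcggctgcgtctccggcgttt
DUSP1: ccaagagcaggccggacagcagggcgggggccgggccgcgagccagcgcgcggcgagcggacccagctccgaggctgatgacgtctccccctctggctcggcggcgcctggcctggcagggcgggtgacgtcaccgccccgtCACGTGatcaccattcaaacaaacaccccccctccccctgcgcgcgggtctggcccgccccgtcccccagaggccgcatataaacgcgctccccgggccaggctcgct

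**Figure D4:**
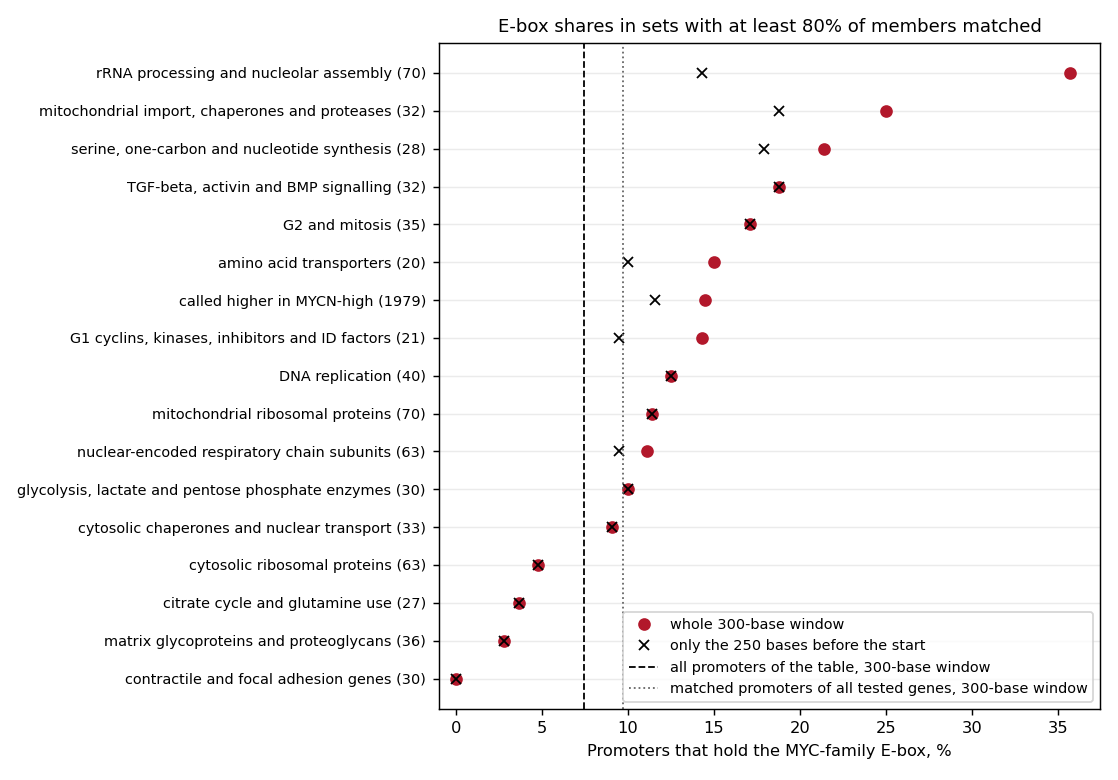
Share of promoters that hold the MYC-family E-box in each set with at least 20 promoters and at least 80% of its members matched, in the whole 300-base window (circles) and in the 250 bases before the start (crosses). The number of matched promoters is in brackets, the dashed line marks the 7.43% of all promoters, and the dotted line the 9.72% of the matched promoters of tested genes.

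Among cell cycle genes, those of DNA replication held most of the calls. Of 45 replication genes 24 were higher and none lower (median log2 change 0.74), and 13 without MYCN-high replicate C or MYCN-low replicate B. MCM3, of the replicative helicase, had 384 and 436 CPM in MYCN-high cells, against 115 and 169.9 CPM in MYCN-low cells (log2 change 1.52 ± 0.22, adjusted p = 0.000153). DBF4 and CDC7, the kinase pair that fires origins, were higher by 1.20 ± 0.21 (log2) and 1.14 ± 0.22 (log2), and the clamp loader subunit RFC3 by 1.18 ± 0.23 (log2). Of 26 G1 cyclins, kinases, inhibitors and ID factors 5 were higher and 3 lower, and 3 were higher without MYCN-high replicate B and 3 without replicate C. CCNE1, cyclin E1, had 26.3 and 36.8 CPM in MYCN-high cells, against 9.62 and 12.96 CPM in MYCN-low cells (log2 change 1.48 ± 0.23, adjusted p = 0.000228). CDC25A, the phosphatase that activates CDK2, was 3.24-fold higher in MYCN-high cells (log2 change 1.69 ± 0.32). SKP2, of the ligase that degrades the inhibitor CDKN1B, was higher by 1.25 ± 0.25 (log2). CDKN1A, the inhibitor p21, had 23.5 and 22.9 CPM in MYCN-high cells, against 117 and 81.2 CPM in MYCN-low cells (log2 change -2.10 ± 0.35, adjusted p = 0.000374). CDKN2D, the inhibitor p19, was lower, with 2.78 and 1.85 CPM in MYCN-high cells, against 8.13 and 8.58 CPM in MYCN-low cells (log2 change -1.85 ± 0.39, adjusted p = 0.0023). CCND1, cyclin D1, had 296 and 166 CPM in MYCN-high cells, against 185 and 162 CPM in MYCN-low cells, with overlapping states, and was not called. CDKN2A and CDKN2B are listed at 0 in all 4 libraries. The shares in this G1 list were 19.2% higher and 11.5% lower, so near or under those of all tested genes (16.5% and 18.6%). Of 43 genes of G2 and mitosis 2 were higher and 1 lower, or 4.65% and 2.33%, against 16.5% and 18.6% of all tested genes. TOP2A, topoisomerase II alpha, had 1474 and 1226 CPM in MYCN-high cells, against 1022 and 1320 CPM in MYCN-low cells, with overlapping states.

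Most genes of the extracellular matrix were lower. Of 45 matrix glycoproteins and proteoglycans 37 were lower and none higher (median log2 change -1.58), and 23 without MYCN-high replicate C or MYCN-low replicate B. TGFBI, an adhesion protein induced by TGF-beta, had 928 and 894 CPM in MYCN-high cells, against 5150 and 4642 CPM in MYCN-low cells (log2 change -2.43 ± 0.24, adjusted p = 1.28e-05). TNC, tenascin C, had 188 and 123 CPM in MYCN-high cells, against 1278 and 977 CPM in MYCN-low cells (log2 change -2.86 ± 0.31, adjusted p = 2.29e-05). THBS1, thrombospondin 1, had 373 and 155 CPM in MYCN-high cells, against 2796 and 1674 CPM in MYCN-low cells (log2 change -3.08 ± 0.43, adjusted p = 0.00012). FN1, fibronectin, had 123 and 73.98 CPM in MYCN-high cells, against 1669 and 612 CPM in MYCN-low cells (log2 change -3.54 ± 0.71, adjusted p = 0.0016). LTBP2, of the microfibrils, was 14.3-fold lower in MYCN-high cells (log2 change -3.84 ± 0.33). The libraries of a pair were close in TGFBI, while in FN1 MYCN-low replicate B stood well above replicate C. POSTN, periostin, had 726 and 560.2 CPM in MYCN-high cells, against 792 and 960.4 CPM in MYCN-low cells, with no overlap between the states, and was not called. VCAN, versican, had 229 and 151 CPM in MYCN-high cells, against 211 and 100.2 CPM in MYCN-low cells, and was not called either.

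Of 34 tested collagens 16 were lower and none higher, and 9 without MYCN-high replicate C and 10 without MYCN-low replicate B. COL6A1, the partner of COL6A2, had 26.96 and 24.9 CPM in MYCN-high cells, against 336 and 218 CPM in MYCN-low cells (log2 change -3.42 ± 0.24, adjusted p = 2.87e-06). COL6A3 was 15.1-fold lower in MYCN-high cells (log2 change -3.92 ± 0.65). COL5A1, which nucleates collagen I fibrils, was 8.25-fold lower in MYCN-high cells (log2 change -3.04 ± 0.42). The fibrillar COL3A1 had 809 and 1073 CPM in MYCN-high cells, against 4555 and 3404 CPM in MYCN-low cells. COL1A1 rested on MYCN-low replicate B, with 73.2 and 28.3 CPM in MYCN-high cells, against 954 and 147 CPM in MYCN-low cells, and its adjusted p was 0.32 without that library. It was not called without MYCN-high replicate C either. COL12A1 was not called, with 9.65 and 9.58 CPM in MYCN-high cells, against 5.66 and 9.69 CPM in MYCN-low cells, with overlapping states. Of 20 genes of collagen folding and cross-linking 16 were lower and 1 higher. P4HA2, a prolyl hydroxylase, had 32.1 and 34.98 CPM in MYCN-high cells, against 185 and 158 CPM in MYCN-low cells (log2 change -2.35 ± 0.28, adjusted p = 4.41e-05). Its relative P4HA1 had 163 and 181 CPM in MYCN-high cells, against 162 and 227 CPM in MYCN-low cells, with overlapping states, and was not called. The cross-linker LOXL1 was 5.37-fold lower in MYCN-high cells (log2 change -2.42 ± 0.36). CRTAP, of the prolyl 3-hydroxylase complex, was the higher one, with 385 and 426 CPM in MYCN-high cells, against 244 and 278 CPM in MYCN-low cells, and its adjusted p was 0.0503 without MYCN-high replicate C and 0.0836 in the fit of the untreated libraries alone.

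Of 28 matrix proteases and inhibitors 18 were lower and none higher, and 9 without MYCN-high replicate C and 11 without MYCN-low replicate B. TIMP2, an inhibitor of metalloproteinases, had 173 and 151 CPM in MYCN-high cells, against 624 and 427 CPM in MYCN-low cells (log2 change -1.69 ± 0.23, adjusted p = 0.000111). MMP14, a membrane metalloproteinase, was 4.78-fold lower in MYCN-high cells (log2 change -2.26 ± 0.33). MMP2, a gelatinase, had 44.6 and 40.6 CPM in MYCN-high cells, against 115 and 79.1 CPM in MYCN-low cells (log2 change -1.18 ± 0.40, adjusted p = 0.0324), and stayed called in only 1 of the 4 fits with a library left out, that without MYCN-low replicate C. Its highest adjusted p in those fits was 0.216 (without MYCN-low replicate B). Of 21 integrin subunits 12 were lower and none higher. ITGA5, which pairs with ITGB1 as the fibronectin receptor, had 39.7 and 33.6 CPM in MYCN-high cells, against 393 and 147 CPM in MYCN-low cells (log2 change -2.88 ± 0.38, adjusted p = 7.52e-05). ITGA3 was 5.4-fold lower in MYCN-high cells (log2 change -2.43 ± 0.39). ITGB5 was 3.53-fold lower in MYCN-high cells (log2 change -1.82 ± 0.23). ITGA4 had 219.7 and 238 CPM in MYCN-high cells, against 173 and 185 CPM in MYCN-low cells, with no overlap between the states, and was not called.

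Of 33 contractile and focal adhesion genes 28 were lower and none higher (median log2 change -1.17), and 17 without MYCN-high replicate C. ACTA2 and TAGLN are smooth muscle markers that mark myofibroblasts. ACTA2 had 56.6 and 25.8 CPM in MYCN-high cells, against 448 and 132 CPM in MYCN-low cells (log2 change -2.81 ± 0.58, adjusted p = 0.0018). TAGLN had 50.3 and 20.5 CPM in MYCN-high cells, against 625 and 194 CPM in MYCN-low cells. In both genes MYCN-low replicate B was the highest library. MYLK, myosin light chain kinase, was 3.69-fold lower in MYCN-high cells (log2 change -1.88 ± 0.34). MKL1, the actin-sensing SRF cofactor, had 15.2 and 16.6 CPM in MYCN-high cells, against 60.8 and 34.4 CPM in MYCN-low cells (log2 change -1.58 ± 0.23, adjusted p = 0.000169). PALLD, palladin, had 196 and 211 CPM in MYCN-high cells, against 189.6 and 251 CPM in MYCN-low cells, with overlapping states, and was not called. Of 25 genes of YAP and TEAD signalling 15 were lower and none higher, and 9 without MYCN-high replicate C, with a median log2 change of -0.75 that was 0.11 under ERCC scaling. CTGF, a matricellular YAP target, had 14.4 and 7.63 CPM in MYCN-high cells, against 120.3 and 42.6 CPM in MYCN-low cells (log2 change -2.88 ± 0.62, adjusted p = 0.0024). AMOTL2, an angiomotin, was lower with 136 and 108 CPM in MYCN-high cells, against 337 and 244 CPM in MYCN-low cells. YAP1 itself had 217 and 192 CPM in MYCN-high cells, against 253 and 255 CPM in MYCN-low cells, with no overlap between the states, and was not called. ANKRD1, another YAP target, had 826 and 189.9 CPM in MYCN-high cells, against 534 and 473 CPM in MYCN-low cells, and its MYCN-high libraries spanned the MYCN-low ones.

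Of 34 genes of TGF-beta, activin and BMP signalling 14 were lower and 1 higher, and 9 lower without MYCN-high replicate C and 8 without MYCN-low replicate B. TGFB1 had 13.02 and 12.5 CPM in MYCN-high cells, against 69.4 and 28.2 CPM in MYCN-low cells (log2 change -1.93 ± 0.39, adjusted p = 0.0016). TGFB2 had 152 and 48.2 CPM in MYCN-high cells, against 844 and 376 CPM in MYCN-low cells (log2 change -2.61 ± 0.56, adjusted p = 0.0024). SMAD3, the receptor-driven factor, had 49.7 and 57.5 CPM in MYCN-high cells, against 142 and 134 CPM in MYCN-low cells (log2 change -1.36 ± 0.19, adjusted p = 0.000115). Its relative SMAD2 had 237 and 209.5 CPM in MYCN-high cells, against 229.7 and 244 CPM in MYCN-low cells, with overlapping states, and was not called. ACVR2B, an activin receptor, was the higher member, with 43.2 and 44.2 CPM in MYCN-high cells, against 17.8 and 17.9 CPM in MYCN-low cells (log2 change 1.30 ± 0.17, adjusted p = 8.33e-05).

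Factors of the mesenchymal neuroblastoma state were more often lower than higher, with 13 of 30 lower, 2 higher and a median log2 change of -0.67, which was 0.05 under ERCC scaling. The count of higher genes was 0 without MYCN-high replicate B, MYCN-high replicate C or MYCN-low replicate C. VIM, vimentin, had 1031 and 893 CPM in MYCN-high cells, against 2655 and 2312 CPM in MYCN-low cells (log2 change -1.37 ± 0.23, adjusted p = 0.000383). CD44, the hyaluronan receptor, had 309 and 232 CPM in MYCN-high cells, against 694 and 902 CPM in MYCN-low cells (log2 change -1.56 ± 0.23, adjusted p = 0.000147). TWIST1, a mesenchymal transcription factor that is known to act with MYCN at enhancers, had 41.9 and 47.2 CPM in MYCN-high cells, against 140.2 and 118 CPM in MYCN-low cells (log2 change -1.54 ± 0.17, adjusted p = 2.06e-05). FOSL2, an AP-1 subunit, was 3.55-fold lower in MYCN-high cells (log2 change -1.83 ± 0.30). ZFP36L1, which destabilises mRNAs, was 4.58-fold lower in MYCN-high cells (log2 change -2.19 ± 0.20). PRRX1, a master factor of the mesenchymal state, had 208 and 205 CPM in MYCN-high cells, against 137 and 153 CPM in MYCN-low cells, with no overlap between the states, and was not called. NOTCH1 had 23.8 and 26.97 CPM in MYCN-high cells, against 39.1 and 23.4 CPM in MYCN-low cells, with overlapping states, and was not called. Of 15 tested adrenergic factors and enzymes none was higher and 2 lower, and 1 was higher without MYCN-high replicate B. KLF7 was one of the lower ones, with 11.6 and 9.35 CPM in MYCN-high cells, against 58.6 and 29.7 CPM in MYCN-low cells (log2 change -2.08 ± 0.40, adjusted p = 0.001). GATA2 had 31.5 and 33.96 CPM in MYCN-high cells, against 31.4 and 23.8 CPM in MYCN-low cells, and was not called. ISL1 had 2.39 and 3.47 CPM in MYCN-high cells, against 1.32 and 3.07 CPM in MYCN-low cells, and was not called either.

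Genes of antigen presentation and of the interferon response were among the lower ones. Of 19 genes of MHC class I antigen presentation 11 were lower and none higher (median log2 change -0.66, or -0.05 under ERCC scaling). HLA-B had 33.2 and 21.6 CPM in MYCN-high cells, against 136 and 114 CPM in MYCN-low cells (log2 change -2.19 ± 0.22, adjusted p = 1.28e-05). HLA-C was 2.99-fold lower in MYCN-high cells (log2 change -1.58 ± 0.17). HLA-E was 2.69-fold lower in MYCN-high cells (log2 change -1.43 ± 0.15). These heavy chain genes are near-identical in part, so their reads could be split. ERAP1, the peptidase that trims peptides for these molecules, was lower with 43 and 39.9 CPM in MYCN-high cells, against 87.2 and 98.1 CPM in MYCN-low cells. B2M, the common light chain, had 723 and 751 CPM in MYCN-high cells, against 619 and 1435 CPM in MYCN-low cells, so the MYCN-high libraries lay between the MYCN-low ones. It was not called with all libraries, and was called lower without MYCN-low replicate B (adjusted p = 0.0052).

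Of 38 interferon-stimulated genes 16 were lower and 2 higher. STAT2 and IRF9 are parts of the factor that carries the type I interferon signal. STAT2 had 11.02 and 12.3 CPM in MYCN-high cells, against 62.1 and 47.2 CPM in MYCN-low cells (log2 change -2.23 ± 0.21, adjusted p = 1.03e-05). IRF9 had 3.51 and 3.65 CPM in MYCN-high cells, against 13.5 and 17.6 CPM in MYCN-low cells (log2 change -2.12 ± 0.27, adjusted p = 7.01e-05). The guanylate binding protein GBP2 was 3.84-fold lower in MYCN-high cells (log2 change -1.94 ± 0.33). IFI44L was one of the higher ones, with 11.99 and 23.4 CPM in MYCN-high cells, against 3.74 and 6.78 CPM in MYCN-low cells (log2 change 1.74 ± 0.35, adjusted p = 0.0016). IFI16, a DNA sensor, had 125 and 156 CPM in MYCN-high cells, against 125 and 161 CPM in MYCN-low cells, with overlapping states, and was not called. Of 15 complement genes 11 were lower and none higher, and 6 without MYCN-high replicate B and 6 without replicate C. C1R and C1S are the proteases of the first complement complex. C1R had 1.8 and 2.31 CPM in MYCN-high cells, against 18.2 and 14.3 CPM in MYCN-low cells (log2 change -2.98 ± 0.44, adjusted p = 0.000167). C1S had 3.56 and 4.03 CPM in MYCN-high cells, against 23.02 and 24.2 CPM in MYCN-low cells (log2 change -2.63 ± 0.36, adjusted p = 9.83e-05). CD59, which protects cells from complement, had 265 and 214 CPM in MYCN-high cells, against 627 and 797 CPM in MYCN-low cells (log2 change -1.57 ± 0.18, adjusted p = 3.04e-05). CD46, of like function, had 92.6 and 85.9 CPM in MYCN-high cells, against 107 and 114 CPM in MYCN-low cells, with no overlap between the states, and was not called.

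Of 33 NF-kappaB factors, chemokines and cytokines 17 were lower and none higher, and 7 without MYCN-high replicate C and 11 without MYCN-low replicate B. CXCL12, the ligand of CXCR4, had 0.682 and 1.85 CPM in MYCN-high cells, against 16.8 and 31.04 CPM in MYCN-low cells (log2 change -4.23 ± 0.73, adjusted p = 0.000511). The neutrophil chemokine IL8 (CXCL8) had 1.32 and 0.74 CPM in MYCN-high cells, against 8.74 and 14 CPM in MYCN-low cells (log2 change -3.47 ± 0.68, adjusted p = 0.0012). CSF1, a macrophage growth factor, was 4.67-fold lower in MYCN-high cells (log2 change -2.22 ± 0.39). RELB, of the non-canonical pathway, had 4.44 and 3.1 CPM in MYCN-high cells, against 19.7 and 9.29 CPM in MYCN-low cells (log2 change -1.94 ± 0.35, adjusted p = 0.00066). NFKB1 had 116 and 96.7 CPM in MYCN-high cells, against 76.8 and 90.95 CPM in MYCN-low cells, with no overlap between the states, and was not called.

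Of 37 lysosome and autophagy genes 25 were lower and 2 higher (median log2 change -0.85, or -0.05 under ERCC scaling). GRN, progranulin, had 30.7 and 30.4 CPM in MYCN-high cells, against 147 and 69.7 CPM in MYCN-low cells (log2 change -1.83 ± 0.26, adjusted p = 0.000118). The protease CTSD had 34.2 and 32.5 CPM in MYCN-high cells, against 112 and 68.4 CPM in MYCN-low cells (log2 change -1.44 ± 0.25, adjusted p = 0.0006). The protease CTSB had 84.04 and 58.1 CPM in MYCN-high cells, against 381 and 183 CPM in MYCN-low cells (log2 change -1.99 ± 0.32, adjusted p = 0.000286). Both are cathepsins that digest protein in the lysosome. NEU1, sialidase, was 2.36-fold lower in MYCN-high cells (log2 change -1.24 ± 0.19). TPP1, a tripeptidyl peptidase, was lower, with 10.9 and 9.25 CPM in MYCN-high cells, against 38.96 and 19.9 CPM in MYCN-low cells. GLA, alpha-galactosidase, was one of the higher ones, with 27.4 and 27.2 CPM in MYCN-high cells, against 15.3 and 15.9 CPM in MYCN-low cells (log2 change 0.81 ± 0.17, adjusted p = 0.0023). Its adjusted p was 0.0638 in the fit of the untreated libraries alone. ATP6V1A, of the proton pump, had 123 and 131 CPM in MYCN-high cells, against 119 and 154 CPM in MYCN-low cells, with overlapping states, and was not called. Of 26 ABC transporters 9 were higher and 7 lower, and 5 higher without MYCN-high replicate C or MYCN-low replicate B and 4 lower without MYCN-low replicate B. With all libraries 34.6% of these transporters were higher and 26.9% lower, against 16.5% and 18.6% of all tested genes. ABCE1, which recycles ribosomes, had 599.5 and 615 CPM in MYCN-high cells, against 152 and 287 CPM in MYCN-low cells (log2 change 1.46 ± 0.22, adjusted p = 0.000184). ABCC4, an organic anion exporter, had 107 and 108 CPM in MYCN-high cells, against 29.7 and 54.8 CPM in MYCN-low cells (log2 change 1.34 ± 0.21, adjusted p = 0.00028). ABCC3 had 8.92 and 6.2 CPM in MYCN-high cells, against 46.6 and 40.5 CPM in MYCN-low cells (log2 change -2.53 ± 0.29, adjusted p = 3.57e-05). ABCC1, a drug exporter, had 60.6 and 72.1 CPM in MYCN-high cells, against 79.8 and 73.8 CPM in MYCN-low cells, with no overlap between the states, and was not called.

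Of 44 receptor tyrosine kinases and growth factors 18 were lower and 1 higher, and 9 lower without MYCN-high replicate C. The neuropilin NRP2 had 66.8 and 65.9 CPM in MYCN-high cells, against 221 and 182 CPM in MYCN-low cells (log2 change -1.60 ± 0.17, adjusted p = 1.76e-05). The ephrin receptor EPHB2 was 3.75-fold lower in MYCN-high cells (log2 change -1.91 ± 0.26). MET had 640.5 and 557 CPM in MYCN-high cells, against 498 and 707 CPM in MYCN-low cells, with overlapping states, and was not called. VEGFA, the angiogenic factor, was the higher one, with 37.2 and 34.8 CPM in MYCN-high cells, against 24.1 and 20.1 CPM in MYCN-low cells (log2 change 0.70 ± 0.25, adjusted p = 0.0387), and was called in none of the 4 fits with a library left out, where its highest adjusted p was 0.155 (without MYCN-high replicate B). Of 16 genes of IGF signalling 6 were lower and 1 higher, and 3 were lower without MYCN-high replicate C and 3 without MYCN-low replicate B, with a median log2 change of -0.49 that was 0.32 under ERCC scaling. The binding protein IGFBP5 had 7.8 and 12.5 CPM in MYCN-high cells, against 99.8 and 48.1 CPM in MYCN-low cells (log2 change -2.86 ± 0.58, adjusted p = 0.0016). IGFBP6 had 19.4 and 17.8 CPM in MYCN-high cells, against 79.1 and 82.6 CPM in MYCN-low cells (log2 change -2.12 ± 0.36, adjusted p = 0.000426). IGF2R had 386 and 378 CPM in MYCN-high cells, against 364 and 432 CPM in MYCN-low cells, with overlapping states, and was not called.

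Of 29 p53 genes and targets 9 were lower and 2 higher, and 5 were lower without MYCN-high replicate B and 4 without replicate C, with a median log2 change of -0.46 that was 0.20 under ERCC scaling. With all libraries 31.0% of the p53 list were lower and 6.9% higher, against 18.6% and 16.5% of all tested genes. PLK2, a polo-like kinase, had 126 and 81.3 CPM in MYCN-high cells, against 483 and 476 CPM in MYCN-low cells (log2 change -2.21 ± 0.22, adjusted p = 1.26e-05). CCNG2, cyclin G2, was 5.96-fold lower in MYCN-high cells (log2 change -2.58 ± 0.31). PHLDA3 was 3.18-fold lower in MYCN-high cells (log2 change -1.67 ± 0.28). MDM2, the p53 ligase and target, had 320.1 and 286 CPM in MYCN-high cells, against 183 and 310.0 CPM in MYCN-low cells, with overlapping states, and was not called. Of 26 AP-1 and immediate-early factors 8 were lower and none higher, and 3 without MYCN-high replicate C and 4 without MYCN-low replicate B, with a median log2 change of -0.76 that was 0.20 under ERCC scaling. With all libraries 30.8% of the AP-1 list were lower, against 18.6% of all tested genes. In the BCL2 family, of inhibitors and effectors of apoptosis, 2 of 13 were higher and 2 lower. These shares of 15.4% each lay under the 16.5% and 18.6% of all tested genes. MCL1, a survival protein of the family, had 478 and 355 CPM in MYCN-high cells, against 438 and 566 CPM in MYCN-low cells, with overlapping states, and was not called. Of 11 genes of iron uptake and storage 3 were higher and 2 lower, and at most 1 was higher without MYCN-high replicate B or C or MYCN-low replicate B. For iron the shares were 27.3% higher and 18.2% lower, the second near that of all tested genes. Of 23 genes reported as repressed by MYC-family proteins 14 were lower and none higher. DKK3, a secreted Wnt modulator, had 16.6 and 8.28 CPM in MYCN-high cells, against 286 and 139.8 CPM in MYCN-low cells (log2 change -4.10 ± 0.42, adjusted p = 1.43e-05). TGM2, transglutaminase 2, had 6.09 and 3.01 CPM in MYCN-high cells, against 109.5 and 56.3 CPM in MYCN-low cells (log2 change -4.19 ± 0.72, adjusted p = 0.000485). NDRG1, named as an N-MYC downstream regulated gene, had 3.41 and 5.14 CPM in MYCN-high cells, against 7.64 and 6.42 CPM in MYCN-low cells, with no overlap between the states, and was not called.

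The 2 MYCN-low libraries did not stand at the same distance from MYCN-high cells. In 2096 of the 2444 higher genes (85.8%) and 2110 of the 2745 lower genes (76.9%), MYCN-low replicate C lay on the MYCN-high side of replicate B. Over the higher genes the median log2 distance of MYCN-high cells was 1.14 from replicate B and 0.70 from replicate C, and over the lower genes it was -1.30 and -0.86. MYCN RNA in these libraries was at 30.7 and 19.1 CPM, lower in replicate C. The ATF4 list was among those whose median had opposite signs against the 2 libraries.

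**Figure D5:**
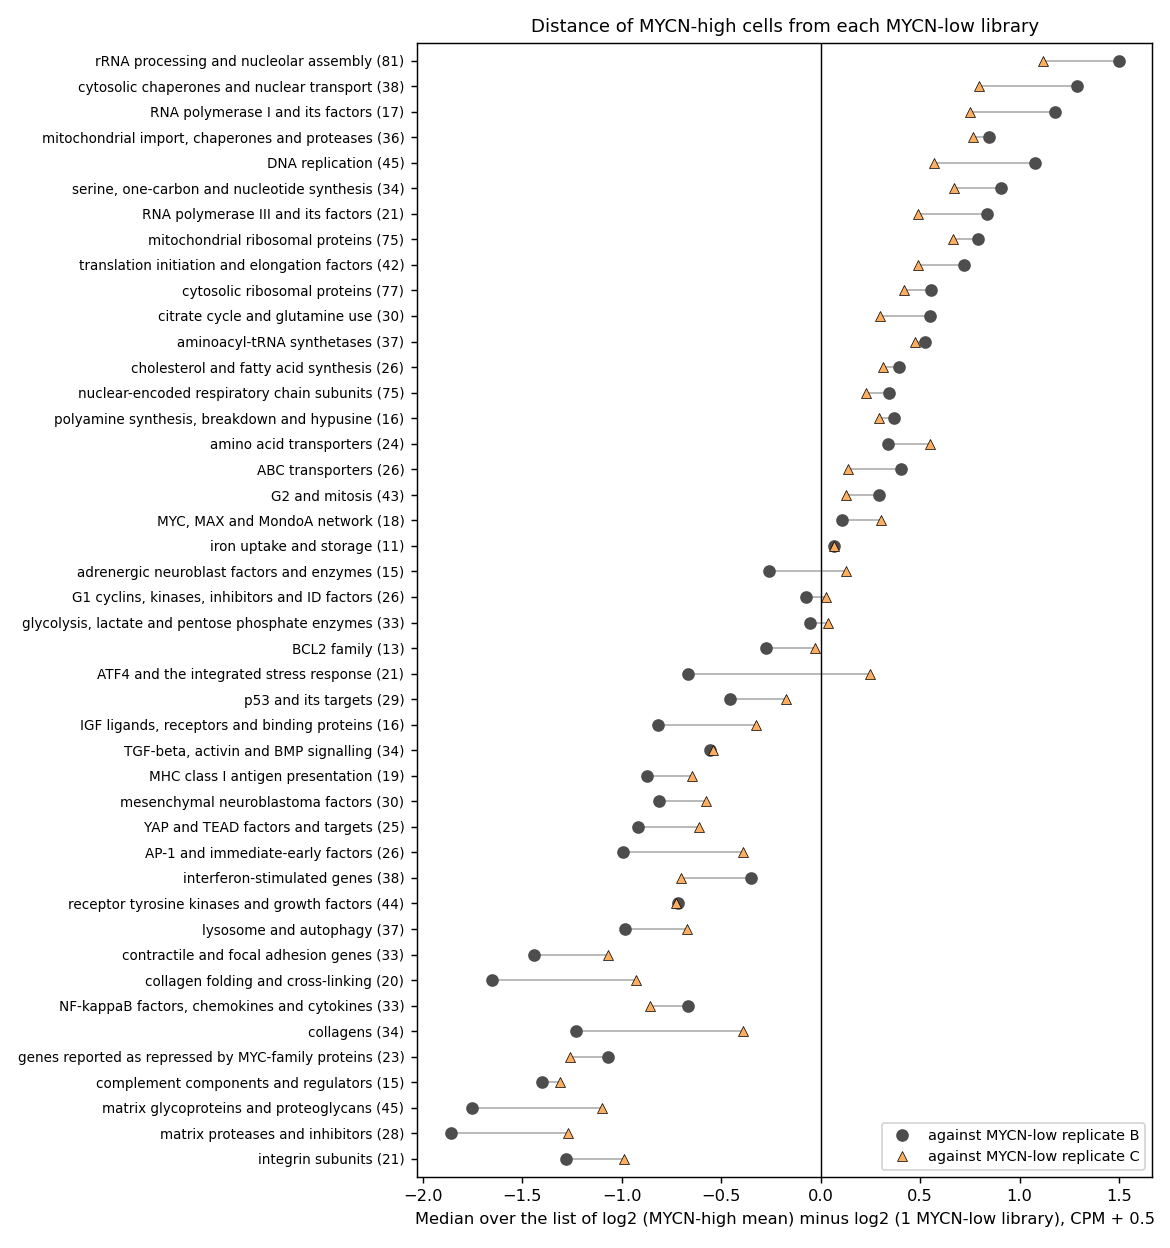
Median over each list's tested members of the log2 distance between the mean of the MYCN-high libraries and each single MYCN-low library, on CPM with 0.5 added. For rRNA processing it was 1.50 against replicate B and 1.12 against replicate C, and for matrix glycoproteins -1.75 and -1.10.

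The same genes were read in the libraries of the later times, which share none with the untreated comparison. Of the 5189 genes called in untreated cells, 2215 were called in the same direction at 72 h of doxorubicin, 2556 at 3 days after washout, 3499 at 8 days and 3327 at 14 days, where MYCN-low cells had 1 library. Those called in the opposite direction numbered 113, 56, 48 and 46. Over all tested genes, 29.9%, 31.8%, 43.9% and 41.8% were called at these times in either direction, so these shares are not of the same measure.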

How the data were processed

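The authors deposited a table of counts per gene for the 19 libraries. Per the submitters' processing notes, STAR 2.4.0h1 and HTSeq were used with hg19. The annotation and the strand setting are not given in the sources used here, so a gene and its antisense partner could not be told apart. Per the labels' protocols, ERCC spike-in RNA was added before rRNA removal with RiboGold and library preparation with ScriptSeq, although the molecule label reads polyA RNA. The 92 ERCC rows were left out of library sizes and tests.

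All 19 libraries in 10 groups were fitted with edgeR 4.0.16 (R 4.3.3) by glmQLFit and glmQLFTest, after filterByExpr and TMM scaling, with Benjamini-Hochberg adjusted p-values over the 14793 tested genes. The standard error is the size of the log2 change divided by the square root of F. The 9 residual degrees of freedom come from pairs of cultures of 1 clone, so p-values measure only the spread between these samples. The fit was tested on simulated data with changes put into known genes. It called 48 of 100 2-fold and 92 of 100 4-fold changes, and 3 of its 143 calls were in unchanged genes. In this simulation far fewer genes were changed than the 35.1% called here. Its libraries were drawn independently around means shared by all groups, apart from the changes put in. These rates may therefore not hold for the real libraries, where the MYCN-low pair agreed poorly. A gene that was not called may still differ by 2-fold. Alternatives were DESeq2 1.42.0 size factors and Wald test, no filter, a replicate block, ERCC scaling, the 4 untreated libraries alone, and each of these libraries left out. In that last case a state with a single library takes its spread from the rest of the groups.

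The members were set by their labels, but they, the gene lists and the rules were chosen with earlier results of these data known. The named genes were MYCN, MYC, ODC1, COL6A2, key genes of the lists and the 15 largest changes per direction. These largest changes had to be at least 2-fold, with a mean of at least 5 CPM and no overlap between the states. They also had to be called with all libraries and whichever untreated library was left out. In each list the called members of smallest p and uncalled members of highest level were named too. The set of named genes was then shortened for length. A few genes are not reported here. Promoters were matched by symbol or synonym to RefSeq on GRCh38.p14 for 11255 of the 14793 tested genes (76.1%), 1219 of them by synonym. Lists and figures were made with Python 3.11.15, pandas 2.3.3 and matplotlib 3.10.9.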

Additional observations from a re-analysis of the deposited data

Results flagged for a closer look

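In 7 of the genes named above the MYCN-high against MYCN-low change was called in opposite directions in untreated cells and at a later time, and the difference between the changes passed the interaction test of edgeR's quasi-likelihood fit. The genes were picked by these conditions, and the interaction test reuses the untreated libraries, so it adds little to the opposite calls. Of all 5189 genes called in untreated cells, 113 were called opposite at 72 h, 56 at 3 days and 48 at 8 days. Each time has 2 libraries per state, apart from 1 MYCN-low library at 14 days. The p-values at 14 days take the spread of that library from the rest of the groups, and so have no replicate check in MYCN-low cells.

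MMP2, lower in untreated MYCN-high cells (log2 change -1.18), was higher at 72 h of doxorubicin, with means of 293.2 CPM in MYCN-high cells, against 102.3 CPM in MYCN-low cells. The log2 changes differed by 2.70 ± 0.57 (adjusted p = 0.0108). At 3 days after washout the means were 360.7 CPM in MYCN-high cells, against 56.8 CPM in MYCN-low cells, a difference of 3.85 ± 0.58 between the log2 changes (adjusted p = 0.00165). At 8 days the difference was 2.63 ± 0.57 (adjusted p = 0.0150). At 14 days MMP2 was not called, with means of 71.8 CPM in MYCN-high cells, against 134.0 CPM in MYCN-low cells. RELB averaged 14.1 CPM in MYCN-high cells, against 4.83 CPM in MYCN-low cells at 72 h, a difference of 3.48 ± 0.49 from the untreated log2 change of -1.94 (adjusted p = 0.00179). IL8 averaged 16.4 CPM in MYCN-high cells, against 4.41 CPM in MYCN-low cells at 72 h, a difference of 5.37 ± 0.89 from -3.47 (adjusted p = 0.00350). ABCC3 averaged 70.9 CPM in MYCN-high cells, against 30.7 CPM in MYCN-low cells at 3 days, a difference of 3.74 ± 0.40 from -2.53 (adjusted p = 0.000411). NDUFS8 averaged 37.1 CPM in MYCN-high cells, against 22.1 CPM in MYCN-low cells at 72 h, a difference of 1.93 ± 0.35 from -1.18 (adjusted p = 0.00545).

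TWIST1 was lower in untreated MYCN-high cells (log2 change -1.54) and higher at 8 days, with means of 54.8 CPM in MYCN-high cells, against 33.0 CPM in MYCN-low cells. The log2 changes differed by 2.27 ± 0.23 (adjusted p = 0.000149), and by 2.75 ± 0.27 at 14 days (adjusted p = 0.000213). VEGFA was higher in untreated MYCN-high cells (log2 change 0.70) and lower at each later time. The difference between the log2 changes was -1.45 ± 0.35 at 72 h, -1.74 ± 0.35 at 3 days, -2.12 ± 0.35 at 8 days and -2.47 ± 0.38 at 14 days, with adjusted p between 0.00232 and 0.0187. VEGFA averaged 30.9 CPM in MYCN-high cells at 14 days, against 105.0 CPM in the MYCN-low library. The untreated calls of MMP2 and VEGFA were lost in fits without 1 library.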

How the results depend on the processing

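With ERCC scaling edgeR called 0 genes higher and 0 lower, with 116 higher and 63 lower at an unadjusted p under 0.05, while 4634 of the 5189 called genes kept their sign. With the 4 untreated libraries alone 1004 genes were higher and 1234 lower. Without 1 library the counts were 1380 to 3339 higher and 1526 to 3131 lower. The other alternatives gave 2568 to 2724 higher and 2705 to 2888 lower. Libraries of the same letter correlated weakly in their deviations from the group means (0.0458 to 0.182 over the 4 times with 2 libraries per state), so the letters were not used as pairs. The replicate block gave 2594 higher and 2867 lower and changed the call of none of the 211 genes named in the text. All 159 called genes among them lost their call with ERCC scaling, which called no gene. With the untreated libraries alone 5 lost it (AMD1, CRTAP, GLA, RRN3 and VEGFA), and no called gene among the 211 reversed its direction. The naming rule had picked 492 genes before they were shortened for length. Of those, 68 lost their call with the untreated libraries alone and 16 reversed direction with ERCC scaling. The genes in the text are thus steadier than the full set of the rule. The share of promoters with CACGTG was 14.5% in genes called higher, 11.6% before the start only, and 16.7% with any listed start, an alternative chosen after seeing the data. For rRNA processing genes it was 35.7%, and 14.3% before the start only. The causes of these moves were not tested. With 2 libraries per state, small changes and genes of few counts, such as MYC in MYCN-high cells, were the least precise.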
